A study of Caenorhabditis elegans with 2 samples.

Results

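Small nuclear RNA (snRNA) genes and the RNase P RNA gene rpr-1 were examined for regions enriched by chromatin immunoprecipitation and sequencing (ChIP-seq) of the zinc-finger transcription factor PAG-3 in Caenorhabditis elegans. They were taken as all genes of biotype snRNA in the WBcel235 (ce11) annotation plus rpr-1, and numbered 130 of 46890 annotated genes on the 6 nuclear chromosomes. The series held 1 group of 2 biological replicates of whole hermaphrodite late embryos, taken 4 hours after synchronisation by egg bleaching. All of them were of strain OP154, which carries the mutation unc-119(ed3) on chromosome III and the transgene wgIs154. The transgene expresses PAG-3 with a GFP-FLAG tag at its C terminus, and the immunoprecipitation used an antibody against GFP. The sequence that drives the transgene, the read depth and the control chromatin were not given in, or not analysed from, the sources used here. Values below are the signal values of the authors' region lists, unless named otherwise. With 1 group there was no comparison between conditions and no test, so counts and medians are given as descriptions beside the same over all annotated genes.

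Spliceosomal snRNAs assemble with Sm or LSm proteins into the particles that remove introns. Nematodes have further RNAs of this kind, the spliced leader RNAs SL1 and SL2, which donate their first bases to the start of many messenger RNAs, SL2 mostly to genes that lie downstream in operons, and the SmY RNAs. RNase P RNA is the catalytic part of the enzyme that trims the 5′ end of transfer RNA precursors. Genes for RNAs of these kinds are short, often present in several copies, and are transcribed from compact promoters in which an upstream element is bound by the SNAPc complex. Those transcribed by RNA polymerase III also carry a TATA box.

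Strong regions lay at 4 of the 130 genes, and sequences of some of those on chromosomes II and III are shown first, with close relatives that had a weaker pooled region or none. The SL2 RNA genes on chromosome II are sls-2.1 (chrII:5844865-5844974, plus strand, WBcel235), sls-2.2 (chrII:5543598-5543707, plus strand) and sls-2.3 (chrII:5544164-5544273, minus strand). Capitals mark their first 22 bases, the leader that is joined to messenger RNAs. Of the 110 bases, sls-2.1 shared 102 with sls-2.2 and 102 with sls-2.3, and sls-2.2 shared 107 with sls-2.3.
sls-2.1 gene: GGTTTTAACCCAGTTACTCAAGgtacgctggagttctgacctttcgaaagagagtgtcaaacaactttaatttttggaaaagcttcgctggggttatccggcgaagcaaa
sls-2.2 gene: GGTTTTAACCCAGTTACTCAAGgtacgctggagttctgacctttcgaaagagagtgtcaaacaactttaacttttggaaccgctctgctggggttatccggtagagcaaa
sls-2.3 gene: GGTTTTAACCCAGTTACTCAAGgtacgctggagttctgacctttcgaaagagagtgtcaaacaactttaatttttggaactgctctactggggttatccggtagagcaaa

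The 80 bases before each gene start, read in the direction of transcription, differed where the genes themselves did not. W05B2.8 (chrIII:10989679-10989780, plus strand, WBcel235) is 1 of 14 gene copies with the same 102 bases. For W05B2.8 and its copies C28A5.7 and Y17G9A.90, shown because their regions differed and chosen after their values were seen, capitals mark the words CGGAACCC and TATATAA. W05B2.8 held both words, C28A5.7 held TATATAA alone and Y17G9A.90 held CGGAACCC alone. W05B2.8 shared 42 of the 80 bases with C28A5.7 and 45 with Y17G9A.90.
W05B2.8 upstream, chrIII:10989599-10989678, plus strand: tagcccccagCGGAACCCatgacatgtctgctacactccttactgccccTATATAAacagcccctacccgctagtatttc
C28A5.7 upstream, chrIII:4426956-4427035, minus strand: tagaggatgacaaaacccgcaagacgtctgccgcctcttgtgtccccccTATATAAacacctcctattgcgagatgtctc
Y17G9A.90 upstream, chrIV:4866731-4866810, plus strand: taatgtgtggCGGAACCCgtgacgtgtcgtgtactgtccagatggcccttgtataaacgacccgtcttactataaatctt

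In the SL2 RNA genes capitals mark the runs of 10 bases or more that all of sls-2.1, sls-2.2 and sls-2.3 hold at the same distance from the gene. There were 2 such runs, of 15 and 17 bases.
sls-2.1 upstream, chrII:5844785-5844864, plus strand: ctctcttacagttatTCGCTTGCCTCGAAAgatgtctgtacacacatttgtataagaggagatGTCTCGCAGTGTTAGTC
sls-2.2 upstream, chrII:5543518-5543597, plus strand: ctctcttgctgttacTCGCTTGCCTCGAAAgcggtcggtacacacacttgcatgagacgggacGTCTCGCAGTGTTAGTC
sls-2.3 upstream, chrII:5544274-5544353, minus strand: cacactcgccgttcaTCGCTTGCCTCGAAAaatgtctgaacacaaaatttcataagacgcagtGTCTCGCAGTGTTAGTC

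Most snRNA genes had no region in any list, and those that had a region mostly had a weak one. The authors deposited permissive lists of candidate regions, 21336 for the pooled replicates, 23022 for replicate 1 and 22971 for replicate 2, and a shorter list that passed a threshold on the irreproducible discovery rate (IDR). The IDR list was made of the pooled candidates of largest signal value, from 84.0 upwards. The permissive lists are labelled as holding peaks and background for the IDR step, so a candidate is not by itself an enriched region. A pooled candidate with its summit within 500 bp was found at 36 of the 130 members (27.7%), in 33 distinct regions, against 32.7% of all annotated genes. That share lay near the background. The background holds 15363 piRNA genes, of which 6.66% had a candidate. Without them, a choice made after the values were seen, the background share was 45.3%, above the share of the members. Each gene was searched over its whole length and 500 bp to each side, so longer genes were searched over wider stretches. Of all genome windows of 1109 bp, the median width searched at members, 20.9% held a candidate summit, below the share of the members. By transcript start, 27.9% of protein-coding genes had a candidate. Shares were 53.3% for 612 tRNA genes and 45.7% for 346 snoRNA genes, whose products guide RNA modification. The median signal value of the strongest candidate was 33.4 over the 36 members, from 24.7 to 204.7, and 34.9 over all annotated genes with a candidate.

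An IDR region lay within 500 bp of 4 members (3.08%), against 1.23% of all annotated genes (1.82% without the piRNA genes), 10.5% of tRNA genes and 10.1% of snoRNA genes. Of all genome windows of 1109 bp, 0.356% held the summit of an IDR region. In each replicate, the strongest regions were taken to the same number as the IDR list holds, and the same 4 members were among them in both replicates, again 3.08% of members, against 0.659% of all annotated genes (0.977% without the piRNA genes). Without rpr-1, which is not of biotype snRNA, both shares were 2.33% (3 of 129 genes), a choice made after the values were seen. Of 261 miRNA genes, 1.92% had an IDR region. Genes that stand close together can share a region, and these differences in share rest on 4 members and were not tested. Each of the 4 IDR regions was a distinct region. The deposited −log10 q value was 2.61 at each of them, 1.49 at the region shared by sls-2.2 and sls-2.3, and 0.961 at sls-2.9. At the other members with a pooled candidate it ran from 0.722 down to 0.0207, so most candidate counts below rest on regions of low significance. Of the 36 members with a pooled candidate, 22 had a candidate in both replicates, 4 in replicate 1 only and 10 in replicate 2 only. Of the other 94 members, 72 had no candidate in any list and 22 had a candidate in 1 replicate, with signal values up to 21.4 in replicate 1 and 18.8 in replicate 2.

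**Figure D1:**
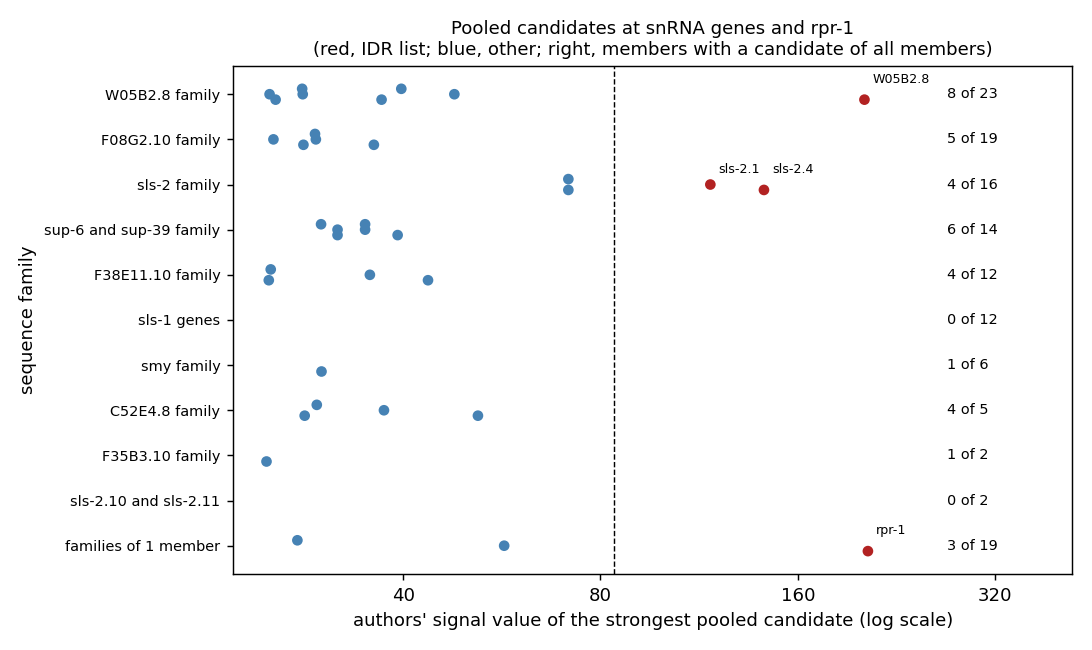
Each point is a member with a pooled candidate, placed by the authors' signal value of its strongest candidate (log scale) and by sequence family, with red for regions in the IDR list, blue for the others, and a dashed line at the lowest signal value of the IDR list, 84.0, and a right column that counts members with a candidate among all members of the family. The red points are rpr-1, W05B2.8, sls-2.4 and sls-2.1, and the row of the sls-2 family, which does not hold sls-2.9, has no point below 71.5.

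The RNase P RNA gene rpr-1 had the highest pooled signal value of all members. Its region had a signal value of 204.7 and rank 15 in the pooled list, 96.2 and rank 19 in replicate 1, and 109 and rank 18 in replicate 2 (102.6 ± 9.01, mean ± SD, n = 2 replicates). The replicate lists were not rescaled, so this SD and those below also hold any difference in scale between the lists. The gene lies on chromosome I from 13463955 to 13464207 on the plus strand, inside an intron of ints-8, which encodes a subunit of the Integrator complex and runs on the opposite strand. The region ran from 13463880 to 13464031, 152 bp wide where most pooled regions were 450 bp wide. Its summit lay inside rpr-1, 29 bp past the start, and the replicate summits lay 49 and 29 bp past the start. A further candidate with a signal value of 54.7 and rank 1730 had its summit 229 bp past the start. The nearest coding transcript start, that of ints-8 itself, was 862 bp from the summit, and the nearest tRNA, snoRNA, rRNA or miRNA gene was 49971 bp away.

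The snRNA gene W05B2.8 was next in the pooled list. Within each replicate it ranked ahead of rpr-1, though the ranges of their replicate values overlapped. Its region, on chromosome III from 10989548 to 10989997, had a signal value of 202.2 and rank 17 in the pooled list, 98.5 and rank 17 in replicate 1, and 111.3 and rank 16 in replicate 2 (104.9 ± 9.08, SD, n = 2). The gene lies in an intron of dhc-4, a dynein heavy chain gene, on the same strand. The pooled summit was inside the gene, 94 bp past its start, and the replicate summits were 12 and 96 bp past it. The nearest coding transcript start was 1900 bp away and the nearest tRNA, snoRNA, rRNA or miRNA gene 13027 bp away.

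The other members in the IDR list were both SL2 RNA genes. The region at sls-2.4, on chromosome I from 4172101 to 4172550, had a signal value of 142.1 and rank 50 in the pooled list, 71.3 and rank 45 in replicate 1, and 71.2 and rank 70 in replicate 2 (71.3 ± 0.10, SD, n = 2). Its summit lay 120 bp past the gene start and 11 bp past the gene end. The gene, from 4172206 to 4172315, overlaps the annotated ncRNA gene R12E2.18 on the opposite strand, whose nearer end is 20 bp from the summit, so the region cannot be given to either from its position. The region at sls-2.1, on chromosome II from 5844626 to 5845075, had a signal value of 117.7 and rank 104 in the pooled list, 59.7 and rank 95 in replicate 1, and 52.7 and rank 215 in replicate 2 (56.2 ± 4.96, SD, n = 2). Its summit lay 14 bp before the gene start. Both replicate values of sls-2.1 were below both of sls-2.4, which were below both of rpr-1 and W05B2.8. No coding transcript start lay within 500 bp of the summit at any of these 4 genes.

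The next 3 members in order of pooled signal value, outside the IDR list, were also SL2 RNA genes. The neighbouring genes sls-2.2 and sls-2.3, which are transcribed towards each other, shared a region with a signal value of 71.5 and rank 597 in the pooled list, 35.1 and rank 850 in replicate 1, and 37.1 and rank 769 in replicate 2. Its summit lay inside sls-2.2 and 497 bp from sls-2.3, so sls-2.3 was counted by a margin of 3 bp. The summit also lay inside the ncRNA gene C17C3.23, annotated on the strand opposite to sls-2.2. The region at sls-2.9 had a signal value of 57.0 and rank 1485 in the pooled list, 22.7 and rank 4987 in replicate 1, and 32.8 and rank 1238 in replicate 2. Its summit lay 183 bp before sls-2.9 and inside both the tRNA gene M01E5.t1 and the ncRNA gene M01E5.8 on the other strand. It was the only member whose summit had a tRNA, snoRNA, rRNA or miRNA gene within 100 bp. Apart from these 7 members, no pooled signal value was above 52.0, the value at C52E4.8, whose summit was also 405 bp from a transcript start of the Sm protein gene snr-4.

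**Figure D2:**
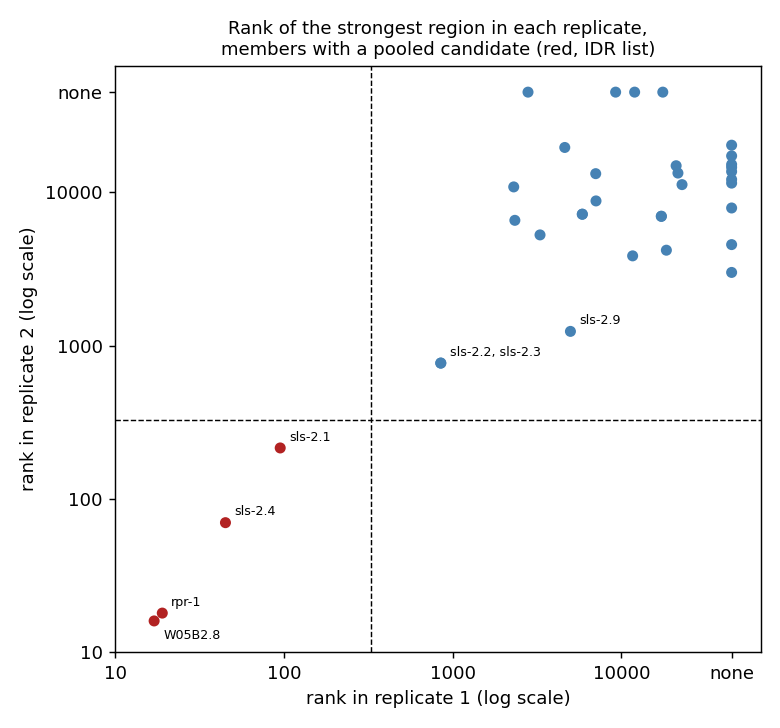
Points are members with a pooled candidate, placed by the rank of their strongest region in replicate 1 (x axis, log scale) and replicate 2 (y axis, log scale), with "none" where a replicate list holds no candidate, red for the IDR list and dashed lines at the rank equal to the length of the IDR list. The 4 red points rank ahead of that limit in both replicates, the shared region of sls-2.2 and sls-2.3 follows at 850 and 769, and the remaining points lie beyond 1000 in both.

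The SL2 RNA genes were also grouped by leader sequence, after the values were seen and with the leader of an IDR member as the reference. The counts by leader are therefore a description only, and an association was not tested. The first 22 bases were identical to those of sls-2.1 in 4 of the 18 sls-2 genes, namely sls-2.1, sls-2.2, sls-2.3 and sls-2.4. All 4 had a pooled candidate, in 3 distinct regions with signal values from 71.5 to 142.1, and 2 were in the IDR list. For sls-2.3 this was the region inside sls-2.2, with its summit 497 bp away. The other 14 differed from that leader at 2 to 8 of the 22 positions, and 1 of them, sls-2.9, had a pooled candidate, the region that lay on a tRNA gene. A further 4 of these 14 had a candidate in 1 replicate only. The 15-base run printed above was held upstream by the same 4 genes and by no other of the 46890 annotated genes. The 17-base run was held by sls-2.1, sls-2.2 and sls-2.3 alone. The share of 36-base words that occur once in the genome, taken over each gene and 500 bp to each side, ran from 89.5% to 98.3% in the 4 genes and from 69.7% to 100% in the other 14, so the ranges overlapped. As a fixed group by name, 5 of the 18 sls-2 genes had a candidate (27.8%), beside 32.7% of all annotated genes.

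No SL1 RNA gene had a pooled candidate. The 12 sls-1 genes stand in a cluster on chromosome V, and a sequence placed there cannot be told from its copies. None of their 36-base words inside the gene occurred once in the genome, and with 500 bp to each side the share was 4.70% at the median and 29.5% at the highest. How the authors treated reads that map to several places was not given in the sources used here, so an absent candidate at sls-1 cannot be read as an absent signal. Of the 10 SmY genes, 1 had a pooled candidate, smy-6, with a signal value below the median of the members, beside 32.7% of all annotated genes. A candidate in 1 replicate only was found at smy-4 (17.1, replicate 1), smy-1 (13.7, replicate 2) and smy-5 (13.5, replicate 2). With 500 bp to each side the unique share of the SmY genes was 97.0% or more. Inside the gene it was 57.1% at the lowest and 100% at the median. With so few genes, nothing particular to the SmY genes is read from the count.

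The 14 identical copies gave unlike values. W05B2.8, at 202.2, stood 5.09 times above the next copy, C28A5.7, at 39.7. The copies R07E5.16 at 37.1, F54C8.9 at 28.1 and K09C6.12 at 25.6 followed, Y9C9A.111 was lower still, and 8 copies had no pooled candidate. C28A5.7 had 20.6 in replicate 1 and 19.3 in replicate 2, and R07E5.16 had 17.5 and 24.5. F54C8.9, K09C6.12 and Y9C9A.111 had no candidate in replicate 1. No copy had a unique 36-base word inside the gene, so reads that fall wholly inside cannot be told apart between copies, and the regions rest on reads that reach the flanks or on how the authors placed the others. The unique share with 500 bp to each side was 93.3% at W05B2.8, 57.1% at the lowest copy, and 92.0% at Y17G9A.90, which had no pooled candidate. Of the 14 copies, 6 stand in introns of mam-3 on chromosome IV, and none of those 6 had a candidate in any list. Their unique shares ran from 57.1% to 67.9%, below those of the other 8 copies, and the part of this in the result was not tested.

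**Figure D3:**
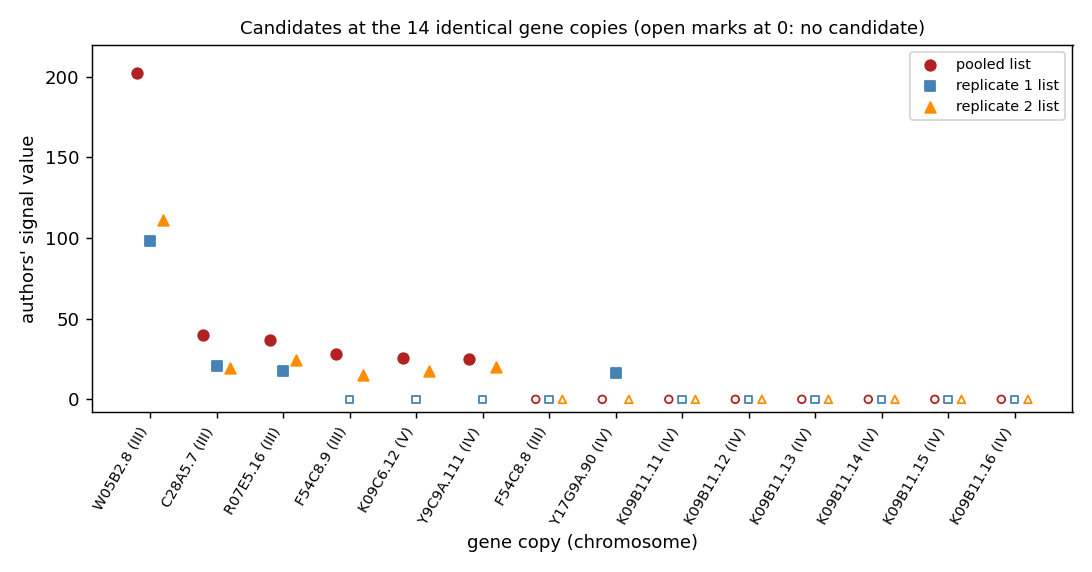
The authors' signal value at each of the 14 copies with the same 102-base sequence is shown for the pooled list (circles), replicate 1 (squares) and replicate 2 (triangles), with open marks at 0 where the list holds no candidate. W05B2.8 stands at 202.2, 98.5 and 111.3, and no other copy exceeds 39.7 in any list.

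Over the whole set, the members fell into 29 sequence families, joined at 80% identity, and 3 of the families had a member in the IDR list. The W05B2.8 family had a candidate at 8 of its 23 genes, of which 1 was in the IDR list. Family counts are small and stand beside the 32.7% of all annotated genes with a candidate, so nothing particular to a family is read from them. The family led by F08G2.10, of 185 to 187 bases, had 5 of 19, with 36.1 as its highest signal value. The family of sup-6 and sup-39, known as U1 snRNA genes in which mutations suppress a splice-site defect, had 6 of 14, with 39.2 as its highest at H27M09.6. In that family the 22-base mir-1831, annotated as an snRNA gene inside sup-39, shared the region and value of sup-39 (31.8). The F38E11.10 family, of 117 to 126 bases, had 4 of 12, with 43.7 at F38E11.10, and the C52E4.8 family, of 142 to 144 bases, had 4 of 5. None of these families but that of W05B2.8 had a member in the IDR list. The RefSeq products name these genes only as small nuclear RNAs, so families are called here by a leading member.

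By chromosome, candidates were found at 5 of 17 members on chromosome I, 9 of 16 on II, 5 of 13 on III, 6 of 41 on IV, 9 of 40 on V and 2 of 3 on X. The shares of members were 29.4% on I, 56.2% on II, 38.5% on III, 14.6% on IV, 22.5% on V and 66.7% on X. Those of all annotated genes there were 52.2% on I, 46.5% on II, 53.5% on III, 15.3% on IV, 38.2% on V and 43.2% on X. Longer genes were searched over wider stretches, so the 2 sets of shares are not matched for width. The low share of all genes on IV includes the 14714 piRNA genes annotated there. The members in the IDR list were 2 on chromosome I, 1 on II and 1 on III. Chromosome IV, with 41 members and 38 IDR regions, and chromosome V, with 40 members and 82 IDR regions, had none. Over all annotated genes the share with an IDR region was 1.23%, so nothing particular to these chromosomes is read from their counts. Copies of a family cluster by chromosome, with 13 of the 23 W05B2.8 family genes and 11 of the 12 F38E11.10 family genes on chromosome IV and all sls-1 genes on V, so chromosome and family cannot be told apart in these counts. By location, 18 of 62 intergenic members and 17 of 56 intronic members had a candidate, each with 2 in the IDR list. So did 1 of 12 that overlap an exon, with none in the IDR list. These counts stand beside 32.7% of all annotated genes with a candidate, and nothing particular to a location is read from them. Location was taken from protein-coding genes only, so a member called intergenic can overlap an ncRNA gene, as sls-2.4 does.

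Only summits within 500 bp of a member were taken, so their nearness follows from the rule. Within that window they were not at a fixed place. The summit lay inside the gene in 9 of the 36, before the start in 15 and past the end in 12, and within 100 bp of the gene in 25. These positions were not counted over all annotated genes, so they are a description only. The median position was 25.5 bp past the start over the 36, from 208 bp before to 606 bp past it, and 61.5 bp past the start over the 4 in the IDR list. In 99.9% of pooled regions the deposited summit is the centre of the region, and the replicate summits at W05B2.8 stood 12 and 96 bp past the start, so positions within the gene are coarse. A coding transcript start lay within 500 bp of the summit for 6 of the 36 candidates and was never nearer than the member.

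**Figure D4:**
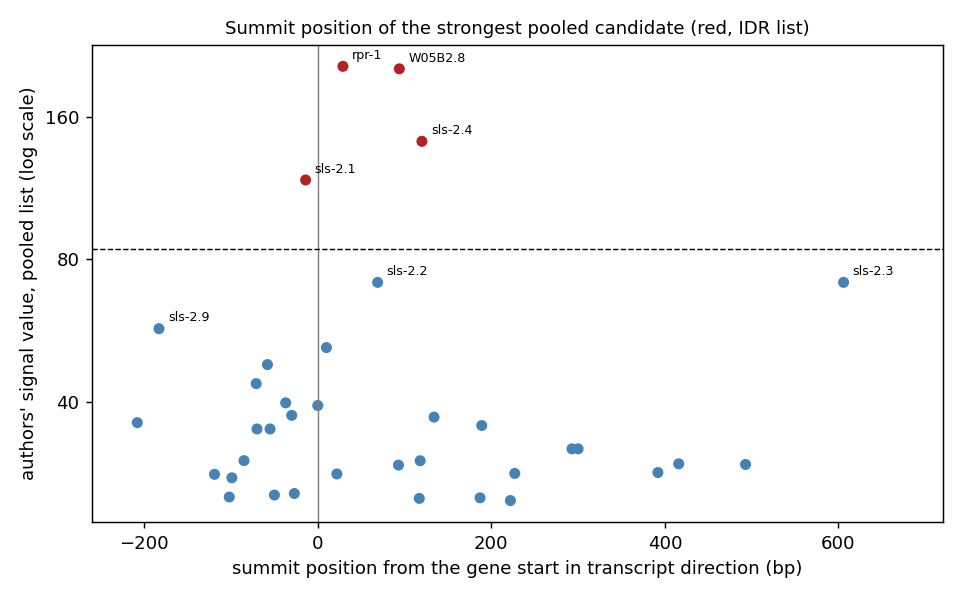
Each point is a member with a pooled candidate, placed by the position of the summit from the gene start in transcript direction (x axis, bp) and the authors' pooled signal value (y axis, log scale), with red for the IDR list and a dashed line at its lowest value, 84.0. The 4 red points lie between 14 bp before and 120 bp past the start, and sls-2.3 at 606 bp is the farthest point.

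The words CGGAACCC and TATATAA marked in the stretches above were searched before every gene, read in the direction of transcription. CGGAACCC was the word of 8 bases held by most members in the 150 bases before the start, and it was chosen for that. It was found at 32 of 130 members (24.6%) in 7 families, against 0.173% of all annotated genes, and started 56 to 74 bases before the gene. A candidate was found at 9 of the 32 members with the word (28.1%) and at 27 of the 98 without it (27.6%), with 2 of the IDR members on each side. TATATAA, chosen after the values were seen, was found in the last 50 bases before 18 members (13.8%) and 1.55% of all annotated genes. Both words stood before 5 members, rpr-1, W05B2.8, F54D8.7, Y17G9A.85 and T08B6.62. The first 2 were in the IDR list, F54D8.7 had a candidate of 47.9, and the others had no pooled candidate. TATATAA without CGGAACCC stood before 13 members, of which 5 had a candidate and none was in the IDR list. The sls-2.1 and sls-2.4 genes held neither word.

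The protein genes that make and use these RNAs were described from 8 lists of 103 names, of which 84 were matched to a gene. A pooled candidate lay within 500 bp of a transcript start in 36 of the 84 (42.9%), against 27.9% of all protein-coding genes. An IDR region did so in 1 of the 84, against 0.866% of protein-coding genes, a share near the background. That gene was snr-1, which encodes an Sm protein of the snRNA particles, with a signal value of 149.6 and rank 40 in the pooled list, 49.5 and rank 195 in replicate 1, and 97.0 and rank 27 in replicate 2. Its summit was more than 250 bp from the transcript start, and no gene of the lists had an IDR region within 250 bp. Among the lists, candidates were found at 4 of 9 SNAPc and snRNA transcription genes, 3 of 11 Integrator genes, 7 of 15 Sm and LSm genes and 14 of 27 snRNP and catalytic-step protein genes. They were found at 4 of 8 assembly and export genes, 1 of 5 genes of SL trans-splicing, 1 of 4 RNase P and RNase MRP protein genes and 2 of 5 RNA polymerase III genes. The strongest region at the Integrator genes was that of ints-4, with a signal value of 64.9 and rank 884. The start of ints-8, the host of rpr-1, had no pooled candidate.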

How the data were processed

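ChIP-seq lists of 2 biological replicates in 1 group were used in build ce11, with the WBcel235 genome, Ensembl genes and RefSeq names. Each region of the lists the authors deposited carries a signal value and, in another column, its −log10 q value, by the column layout. The score column and the ce10 candidate lists were not used. The peak caller, the aligner and the IDR threshold are not given in the sources used here, and depth is unknown. From these lists the strongest region with its summit within 500 bp of each gene was taken, and ranks were computed within each list. Signal values were not rescaled between lists. All 130 members matched a RefSeq name, used because Ensembl gives identical copies the same name. Families were joined by single linkage at 80% identity over the shorter gene. Named members are rpr-1, those in the IDR list, the 3 next strongest, and pathway genes in the IDR list. Others named were chosen after their values were seen. The members, gene lists and groupings were chosen with earlier results of these data known. Region matching and word search were tested on simulated data. Alternatives varied the window, rank limits, families, words and replicates. Python 3.11.15, numpy 2.4.6, pandas 2.3.3, scipy 1.17.1 and matplotlib 3.10.9 were used. The sequence of 1 gene is not reported here.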

Additional observations from a re-analysis of the deposited data

How the results depend on the processing

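Counts were held to 1.5 times the reported count, medians to 1 SD between the replicates and the share of members with a word to its 95% Wilson interval. That interval treats members as independent, though some are identical copies and the word was chosen from them. It served only as a limit here and does not measure a spread. Of 46 alternatives, 35 stayed within these limits and 11 moved beyond them. The same 4 genes were in the IDR list at 500 bp, among the 471 strongest pooled regions, and among the strongest regions of each replicate alone, taken to the length of the IDR list, and a window of 1000 bp added sls-2.15. The count of pathway genes with an IDR region, 1 at 500 bp, was 0 at 100 bp, 0 at 250 bp and 3 at 1000 bp. The median pooled signal value of members was 35.3 at 100 bp, 35.0 at 250 bp and 35.3 at 1000 bp. From 1 replicate alone it ran from 17.9 to 18.6, on the scale of the replicate lists, which is lower. The median summit position in the IDR list was 94.0 bp past the start with a window of 1000 bp, where sls-2.15 enters, and 30.5 to 62.5 bp from 1 replicate alone. The most shared word of 6 bases was held by 33.8% of members. Without rpr-1, an alternative chosen after seeing the data, 3 members remained in the IDR list. No paired analysis was possible because the series holds 1 group. Read depth was unknown, the control was not analysed here, and genes without unique sequence limit what a missing candidate can show.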

Other observations

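The 6-base words TGTCGG and TGTCTG were chosen after the values were seen. Read in the direction of transcription, at least 1 of them stood in the 150 bases before 63 members. Of these 63, 19 had a pooled candidate and 4 were in the IDR list. Of the 67 members with neither word, 17 had a pooled candidate and none was in the IDR list. TGTCGG alone was found before 33.1% of members and 1.72% of all annotated genes, and TGTCTG before 22.3% of members and 3.2% of all annotated genes. At least 1 of them stood before 18 of the 19 genes of the F08G2.10 family and before 4 of the 23 genes of the W05B2.8 family. Both words are short, and members of some families share them, so these counts are a description of 4 loci.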
